A study of Bubalus bubalis with 12 samples.

Results

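The expression of 10 genes of the connective tissue was followed in the ruminal wall of buffaloes: TNXB, TNC, POSTN, SPARC and SMOC2, which encode matricellular proteins, DCN, LUM and PODN, which encode small leucine-rich proteoglycans, and FN1 and FBN1, which encode fibronectin and fibrillin-1. They were the rows of the expression table that carried these 10 gene symbols, and 10 of 10 were found among 34037 genes. All 10 were also among the 12742 genes that were tested. The set was selected on the difference between the diets in these same animals, in which TNXB was higher and PODN and SMOC2 were lower on the green diet. The diet difference is therefore described for the members with its error and without a test.

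Total RNA was sequenced from the ruminal wall of 12 Italian Mediterranean dairy buffaloes, adult multiparous cows, sampled at slaughter. The control group of 6 animals was fed a total mixed ration (TMR), and the treated group of 6 animals was fed TMR with ryegrass green feed making up 30% of the diet. The rations were made equal in nitrogen and energy, and the green ration also held less corn silage, alfalfa hay and concentrate and more corn meal. It held no soybean meal, calcium carbonate or vitamins, and its ratio of forage to concentrates was higher. The comparison asked how the green feed altered the transcriptome of the rumen. Each animal gave 1 library, and no animals were pooled.

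The deposited values are FPKM, fragments per kilobase of gene scaled to all fragments counted in the animal. Between 10531245 and 12947982 fragments were counted per animal. The 66 pairs of animals all differed by more than counting error. The biopsies were dominated by epithelium. KRT5, the keratin of basal squamous cells, lay between 451 and 2372 FPKM over the 12 animals, and the summed level of 8 epithelial markers was 2471 to 4704 FPKM in control and 2824 to 5303 FPKM in treated animals. The summed level of 10 fibroblast genes, which are the fibrillar and type VI collagens, PDGFRA and THY1, was only 43.5 to 156 FPKM in control and 19.6 to 161 FPKM in treated animals.

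Fibroblasts below the stratified epithelium of the rumen make its connective tissue. Fibronectin and fibrillin microfibrils form a scaffold in that tissue, small leucine-rich proteoglycans bind collagen and set the width and spacing of its fibrils, and matricellular proteins tune how cells attach to the matrix and respond to growth factors. Many of these genes are made by the same fibroblasts and are known for rising together during tissue growth and repair.

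The 10 members spanned a wide range of levels. In control animals the mean FPKM followed the order LUM, DCN, SPARC, FN1, FBN1, TNC, POSTN, TNXB, SMOC2 and PODN, from 34.8 ± 31.7 (SD, n = 6) for LUM to 1.04 ± 0.364 for PODN. Of the neighbours in that order, SPARC and FN1 alone differed by more than the larger of their SDs, and SPARC was above FN1 in 6 of 6 control animals. TNC, POSTN and TNXB were not separated, with means of 2.26, 2.23 and 2.16 FPKM. In treated animals the first 5 places were the same, and TNXB stood sixth, above TNC and POSTN. There TNXB exceeded TNC by 1.33 FPKM, slightly more than the larger SD of 1.24 FPKM, and was above it in 5 of 6 animals. Each member was above the floor of 3 reads in every animal.

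TNXB encodes tenascin-X, a large glycoprotein that links collagen fibrils and whose loss gives lax connective tissue. Its level was 1.32 FPKM in the lowest control animal, 1.90 at the median and 3.89 in the highest. In treated animals the lowest was 2.26, the median 3.03 and the highest 5.04 FPKM. The groups overlapped: each of the 6 treated animals was above the control median, 4 control animals were below every treated animal, and treated replicate 4 alone was above every control animal. Control replicate 3, the highest control animal, lay above 5 treated animals. The control mean was 2.16 ± 0.937 FPKM and the treated mean 3.24 ± 1.09 FPKM (± SD over 6 animals each). On the scale of log2(FPKM + 0.01) the treated mean was higher by 0.62 (SE 0.28), a ratio of 1.53. Between 227 and 826 reads lay behind each value, more than for PODN or SMOC2. In the RefSeq annotation of NDDB_SH_1, which is not the assembly the reads were aligned to, TNXB overlaps LOC102394885 and LOC102392741, and the counting took the strand into account.

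TNC encodes tenascin-C, which is low in resting adult tissue and is induced where matrix is remodelled. It did not share the direction of TNXB, the other tenascin. The FPKM of TNC ran from 0.810 through a median of 2.24 to 4.98 in control animals, and from 0.265 through 1.99 to 3.65 in treated animals. The groups overlapped over almost their whole range, with 1 treated animal below every control animal and 1 control animal above every treated animal. The treated minus control difference on the log2 scale was -0.38 (SE 0.61), smaller than its error, and without treated replicate 1 it was 0.10.

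POSTN encodes periostin, which supports collagen cross-linking and is made by activated fibroblasts. Control animals ranged from 0.653 FPKM through a median of 2.39 to 3.98, and treated animals from 0.561 through 1.61 to 2.85. The 3 control animals with the highest values were above every treated animal, and the remaining 3 lay among them. The difference on the log2 scale was -0.38 (SE 0.50), again within its error.

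SPARC encodes osteonectin, a collagen-binding protein that guides the assembly of collagen fibrils. It was the most abundant of the matricellular members. Its FPKM ran from 8.08 through 11.9 to 20.4 in control animals and from 4.62 through 8.95 to 14.4 in treated animals. Treated replicates 1 and 2 were below every control animal and control replicates 1 and 3 were above every treated animal, while the other 8 animals overlapped. The difference on the log2 scale was -0.53 (SE 0.32).

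SMOC2, a secreted calcium-binding relative of SPARC that is found around basement membranes, was 1 of the 2 members with the lowest counts. Its FPKM was 0.717 in the lowest control animal, 1.22 at the median and 2.46 in the highest, and in treated animals 0.137, 0.300 and 1.74. The treated animals fell into separate levels: replicates 1, 3, 4 and 6 were below every control animal, whereas replicates 2 and 5, at 1.74 and 1.14 FPKM, lay within the control range. Control replicates 4 and 5 were above every treated animal. The control mean was 1.41 ± 0.675 FPKM and the treated mean 0.629 ± 0.663 FPKM (± SD over 6 animals each). The log2 difference was -1.68 (SE 0.60), a control to treated ratio of 3.20.

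The precision of SMOC2 was limited by depth. Only 5 to 92 reads lay behind its values, and in treated replicate 3 the 5 reads gave 0.137 FPKM with an exact Poisson 95% interval of 0.0444 to 0.319 FPKM, which covers counting error only. That interval lay below the 0.454 to 1.08 FPKM of control replicate 6, the lowest control animal, which rested on 23 reads. The intervals of treated replicate 4 (0.208 to 0.639 FPKM) and control replicate 6 overlapped. With a pseudocount of 1 FPKM in place of 0.01 the log2 difference of SMOC2 was -0.61.

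PODN encodes podocan, a small leucine-rich proteoglycan that binds collagen and is known as a brake on the growth of smooth muscle cells. Its FPKM was 0.685 in the lowest control animal, 0.922 at the median and 1.61 in the highest. In treated animals the lowest was 0.130, the median 0.407 and the highest 1.16 FPKM. Except for treated replicate 4, at 1.16 FPKM, the treated animals (5 of 6) were below every control animal, and control replicates 1 and 4 were above all 6 treated animals. The control mean was 1.04 ± 0.364 FPKM and the treated mean 0.486 ± 0.384 FPKM (± SD over 6 animals each). The log2 difference was -1.39 (SE 0.47), a control to treated ratio of 2.61, and it was -0.48 with a pseudocount of 1 FPKM. PODN rested on 5 to 65 reads. In treated replicate 1 the 5 reads gave an exact Poisson 95% interval of 0.0422 to 0.303 FPKM, below the 0.451 to 0.997 FPKM of control replicate 5, the lowest control animal. The intervals of treated replicates 3 and 5 overlapped that of control replicate 5.

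**Figure D1:**
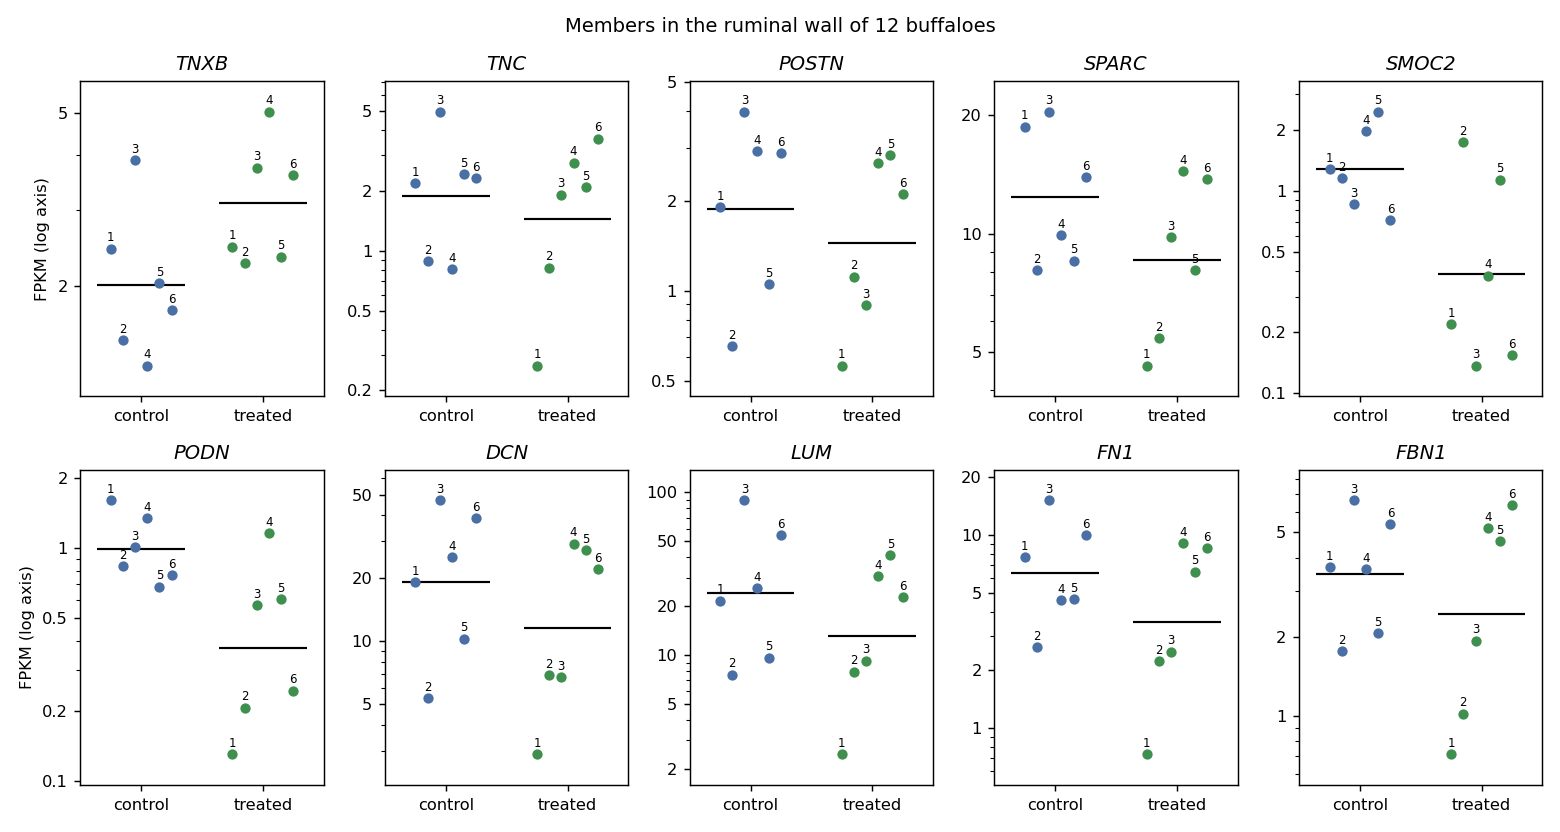
FPKM of each member (log axis, its own range in each panel) in the 6 control and 6 treated animals, each point 1 animal with its replicate number and each line the geometric mean of the group. The treated points of TNXB sit above the control median of 1.90 FPKM, 5 of 6 treated points of PODN lie below every control point, and the treated points of SMOC2 split into 4 low and 2 within the control range.

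DCN and LUM encode decorin and lumican, the abundant class I and class II proteoglycans that coat collagen fibrils. They were the members with the highest levels and also among those that varied most. DCN ran from 5.36 FPKM through a median of 22.2 to 47.1 in control animals and from 2.89 through 14.5 to 29.3 in treated animals. LUM ran from 7.60 through 23.7 to 89.5 FPKM in control animals and from 2.45 through 16.0 to 41.0 FPKM in treated animals. For each of the pair, treated replicate 1 lay below every control animal and control replicates 3 and 6 lay above every treated animal. The differences on the log2 scale were -0.73 (SE 0.63) for DCN and -0.88 (SE 0.72) for LUM.

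FN1, the gene of fibronectin, ran from 2.63 FPKM through a median of 6.19 to 15.2 in control animals and from 0.731 through 4.48 to 9.12 in treated animals. FBN1, the gene of fibrillin-1, ran from 1.76 through 3.65 to 6.63 FPKM in control animals and from 0.712 through 3.28 to 6.36 FPKM in treated animals. Treated replicates 1, 2 and 3 were below every control animal for FN1, and replicates 1 and 2 for FBN1, while the other treated animals lay within the control range. The log2 difference was -0.83 (SE 0.59) for FN1 and -0.50 (SE 0.54) for FBN1.

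In all, 9 of 10 members had a lower mean log2 value in treated animals, with a median difference of -0.63 over the members. Over all 12742 genes tested, 48.8% were lower and the median difference was 0.01. The 9 include PODN and SMOC2, which were chosen for being lower, so the count and median are not independent of the choice. The remaining lower members were low in the same animals. Without treated replicates 1 and 2, omitted after seeing the data, TNC, FBN1 and POSTN were at 0.42, 0.26 and 0.05. DCN, LUM, FN1 and SPARC were then at -0.04, -0.09, -0.10 and -0.15. With the limma fit over all genes, 1 member (TNXB) was past a nominal p of 0.05 in the higher direction, where 0.801% of all genes were called, and 2 members (PODN and SMOC2) in the lower direction, where 0.471% were called. In either direction 1.27% of genes were called, 162 in number. These 3 members were chosen by that same contrast, so the counts carry nothing beyond the choice. Across 20 fits TNXB was past this threshold in 11, and it was not with median ratio scaling, with no filter, or in 7 of the 12 fits that left out 1 animal. After Benjamini-Hochberg adjustment 0.0% of genes had a limma p under 0.05, and the smallest adjusted p was 1.00 to 3 digits. With voom on the recovered reads, 0 genes passed the adjusted threshold and 145 the nominal one.

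The rest of the extracellular matrix was read in the same fit. Of 85 other matrix genes, listed by family and not by how they moved, 79 were in the table and 44 were tested. Of the 44, 0 were past a nominal limma p of 0.05, beside 1.27% of all genes, and 0 were past the adjusted threshold (0 of each by voom). The mean was lower in treated animals for 31 and higher for 13, with a median log2 difference of -0.17. Each of the 6 tested proteoglycans of the decorin family was lower on average, with a median of -0.84, the lowest of the families, and PODNL1 among them was at -0.08 (SE 0.63). Of the 10 other matricellular genes 6 were lower and 4 higher on average, with a median of -0.20. Of 14 fibrillin, fibulin and elastic fibre genes 11 were lower (median -0.17), and of 11 other interstitial glycoproteins 7 were lower (median -0.02). Of 3 large proteoglycans 1 was lower and 2 were higher (median 0.07).

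The 4 genes of the wider list with the smallest nominal p were OGN, SPARCL1, FBLN1 and PRELP. OGN, which encodes osteoglycin, another collagen-binding proteoglycan, had a control mean of 1.31 ± 0.980 FPKM and a treated mean of 0.623 ± 0.622 FPKM (± SD over 6 animals each), a log2 difference of -2.06 (SE 1.11). It was listed at 0 in at least 1 treated animal, so that this value depends on the pseudocount. SPARCL1, the closest relative of SPARC, was at 2.53 ± 0.646 and 1.89 ± 0.781 FPKM, a log2 difference of -0.46 (SE 0.27). FBLN1, which encodes fibulin-1, a partner of fibronectin, differed by -0.81 (SE 0.49), and PRELP, a proteoglycan that anchors basement membranes to collagen, by -1.02 (SE 0.64). The nominal limma p of these 4 ran from 0.084 for OGN to 0.133 for PRELP, and each adjusted p was 1.00 to 3 digits.

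The members were chosen by the diet contrast, and its p-value also depends on the variation among animals of the same diet. The spread of TNXB, PODN and SMOC2 is therefore not independent of the choice. The within-group SD of the log2 values was 0.51 for TNXB, the steadiest member, and 1.45 for LUM, the most variable. These SDs were larger than those of 71.7% and 98.0% of all genes tested. LUM differed 36.5-fold between its lowest and highest animal, TNXB 3.83-fold.

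The same animals were at the extremes for most members. Treated replicate 1 was the lowest of the 12 animals for 8 of 10 members, the exceptions being TNXB and SMOC2. Control replicate 3 was the highest for 7 of 10, the exceptions being TNXB, SMOC2 and PODN. Treated replicates 1 and 2 also had the lowest levels of the 10 fibroblast genes, at geometric means of 1.41 and 1.97 FPKM. Treated replicate 6 and control replicate 3 had the highest levels of that list, at 8.88 and 8.73 FPKM.

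The deviations of each member from its group mean were then correlated over the 12 animals, with a two-sided permutation test within groups and Benjamini-Hochberg adjustment over the 45 pairs. In this measure 24 of 45 pairs were past a nominal p of 0.05 and 22 past an adjusted p of 0.05. By Spearman's rho 21 were past the adjusted threshold. The share of all gene pairs past these thresholds was not computed, so the counts cannot be read as particular to the members. Among all genes tested, DCN ranked 1 in likeness to POSTN, but POSTN ranked 597 in likeness to TNC and 435 in likeness to SPARC. Both values of a point come from the same biopsy and library. In bulk tissue, fewer cells of a type and less RNA per cell cannot be told apart.

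TNC, POSTN, SPARC, DCN, LUM, FN1 and FBN1 formed 1 block. The 21 pairs among these 7 members had r between 0.653 and 0.984, with a median of 0.880, and 20 of 21 passed the adjusted threshold, the exception being TNC with POSTN. The strongest pair was POSTN with DCN (r = 0.984, rho = 0.951, adjusted permutation p = 0.00045). It was followed by DCN with LUM (r = 0.976, rho = 0.972) and POSTN with LUM (r = 0.957, rho = 0.965), both with the same adjusted permutation p of 0.00045. Without the 2 animals farthest from the median of the first gene, r was 0.970, 0.962 and 0.939 for these 3 pairs. DCN and LUM also lie next to each other in the NDDB_SH_1 annotation.

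TNXB, PODN and SMOC2 stood at the edge of this block or outside it. TNXB was correlated past the adjusted threshold with SPARC (r = 0.806, rho = 0.804, adjusted permutation p = 0.00813) and with TNC (r = 0.733, rho = 0.734, adjusted permutation p = 0.0188), and r was 0.715 and 0.651 without the 2 animals farthest from the median of TNXB. Its r with DCN was 0.451 and with POSTN 0.381, neither past the threshold, and without those 2 animals these were 0.105 and -0.02. PODN had r between 0.037 and 0.608 with the other 9 members, and 0 of 9 pairs passed the nominal threshold. SMOC2 had r between -0.451 and 0.067, with 0 of 9 past the nominal threshold by Pearson's r.

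Among the 3 genes that the choice rested on, no pair was past the nominal threshold. TNXB and SMOC2 had the lowest r of the 45 pairs (r = -0.451, rho = -0.483, permutation p = 0.136, adjusted p = 0.191). TNXB and PODN had r = 0.410 and rho = 0.385 (permutation p = 0.174, adjusted p = 0.224), and SMOC2 and PODN had r = 0.037 and rho = 0.112 (permutation p = 0.930, adjusted p = 0.964). PODN and SMOC2, both lower on average in treated animals, were low in partly different animals. The 3 lowest were treated replicates 1, 2 and 6 for PODN and 3, 6 and 1 for SMOC2. Treated replicates 1, 3 and 6 were below every control animal for both genes. The other 2 of the 3 lowest pairs were SPARC with SMOC2 (r = -0.431, rho = -0.350, permutation p = 0.214, adjusted p = 0.261) and SMOC2 with FBN1 (r = -0.220, rho = -0.224, permutation p = 0.565, adjusted p = 0.652). Whether the coefficients of SMOC2 and PODN differ from those of the block was not tested, and both genes rest on few reads.

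**Figure D2:**
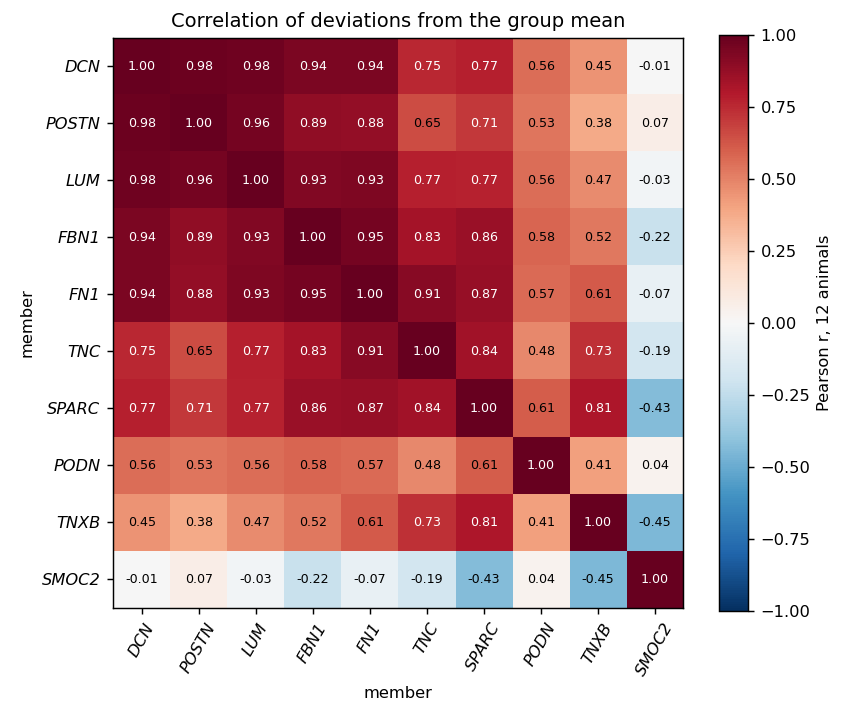
Pearson r between each 2 members, over the deviations of log2(FPKM + 0.01) from the group mean in 12 animals, from -1 (blue) to 1 (red), with genes placed by likeness. The 7 members from DCN to SPARC form a red block with r of 0.653 or more, PODN and TNXB are paler, and the SMOC2 row is near 0 or below.

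The fibroblast list moved with most members. Over the same 12 animals, the deviation of its mean log2 FPKM was correlated past the adjusted threshold with 8 of 10 members by Pearson's r, and with 7 of 10 by Spearman's rho, where POSTN did not pass, among 40 relations of the members with 4 marker lists. The coefficient was 0.943 for TNC (rho = 0.888, adjusted permutation p = 0.0008), 0.918 for FN1 (rho = 0.902, adjusted permutation p = 0.0008) and 0.913 for SPARC (rho = 0.923, adjusted permutation p = 0.0027). For TNXB it was 0.710 (rho = 0.720, adjusted permutation p = 0.0255), and 0.814 without treated replicates 1 and 6. PODN (r = 0.493, rho = 0.413, adjusted permutation p = 0.257) and SMOC2 (r = -0.395, rho = -0.448, adjusted permutation p = 0.363) were not past the threshold. The share of all genes tested that would pass with any of the 4 lists was not computed.

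The smooth muscle list was correlated past the adjusted threshold with 7 of 10 members by Pearson's r and with 2 of 10 (SPARC and PODN) by Spearman's rho. The coefficient was highest for SPARC (r = 0.823, rho = 0.776, adjusted permutation p = 0.018), followed by TNC (r = 0.794) and FN1 (r = 0.792). For PODN it was 0.760 (rho = 0.762, adjusted permutation p = 0.0313), and r was 0.435 without treated replicates 1 and 4, on which the relation rests. SMOC2 was past the threshold with 0 of the 4 lists. With the endothelial list 1 of 10 members, SPARC, was past it by each coefficient (r = 0.781, rho = 0.818, adjusted permutation p = 0.0235). With the epithelial list, the 7 members of the block had negative coefficients from -0.790 (FBN1) to -0.669 (SPARC). Each of these 7 passed the adjusted threshold by Pearson's r, and 0 of 7 passed it by Spearman's rho (adjusted permutation p of 0.0629 to 0.0985). Without treated replicates 6 and 1, the coefficient of FBN1 was -0.596 and that of SPARC -0.453.

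**Figure D3:**
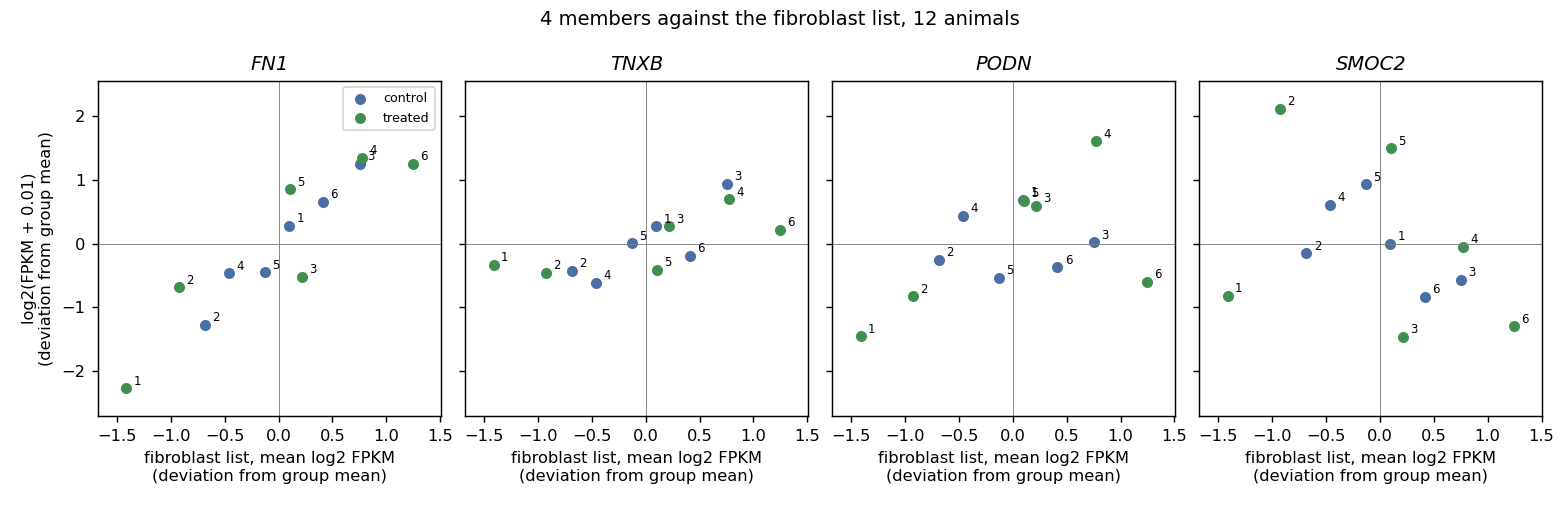
Deviation from the group mean of FN1, TNXB, PODN and SMOC2 (vertical axis, log2(FPKM + 0.01)) against that of the mean log2 FPKM of the 10 fibroblast genes (horizontal axis), each point 1 animal with its replicate number. FN1 follows the list closely (r = 0.918), TNXB with a flatter slope (r = 0.710), PODN loosely (r = 0.493), and SMOC2 does not follow it (r = -0.395).

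The marker lists were compared between the diets as well. The treated minus control difference of the mean log2 level was -0.46 (SE 0.47) for the fibroblast list. The mean was lower for 10 of its 10 genes, beside 48.8% of all genes tested, and 0 were called at a nominal limma p of 0.05. Treated replicates 1 and 2, at 0.50 and 0.98, were below the lowest control animal at 1.69, while treated replicate 6 was the highest of all animals at 3.15. The medians of COL5A1 (1.66 in control, 1.68 in treated animals) and THY1 (1.72 and 2.27 FPKM) were higher in treated animals. The smooth muscle list differed by -0.68 (SE 0.37), with 7 of 7 tested genes lower on average. Of these, 1 was called, beside 0.471% of all genes tested that were called in the lower direction. The summed level of all 10 smooth muscle markers was 15.4 to 35.4 FPKM in control and 5.60 to 27.7 FPKM in treated animals. The mean log2 level, here and in the correlations, used only the 7 markers above 0 in every animal. ACTG2, CNN1 and MYOCD were left out, as each was at 0 in at least 1 treated animal. Their medians were also lower in treated animals. The epithelial list differed by 0.12 (SE 0.20) and the endothelial list by -0.10 (SE 0.48). A list of leukocyte markers differed by -0.31 (SE 0.21), with 4 of 4 tested genes lower on average, and a list of glial markers by -0.11 (SE 0.15). Lists of adipocyte and mesothelial markers, each with 1 gene above 0 in every animal, differed by -0.04 (SE 0.43) and 0.46 (SE 0.37). The part of these differences in the values of the members was not tested.

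Each member was also set against the fibroblast list of the same animal. This step subtracts the list's own difference of -0.46 (SE 0.47) from that of every member. All differences moved by the same amount, and the gaps between members stayed as on FPKM. For TNC, POSTN, SPARC and FBN1 the treated minus control difference was between -0.07 and 0.08 on the log2 scale, each smaller than its SE of 0.20 to 0.41. DCN differed by -0.26 (SE 0.46), FN1 by -0.37 (SE 0.32) and LUM by -0.42 (SE 0.55). This scale was chosen after seeing the data.

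The difference of TNXB was 1.08 (SE 0.33) on this scale, in place of 0.62 on FPKM, by the shift shared with every member. Its level relative to the list ran from -1.95 to -1.09 in control animals and from -1.30 to 0.81 in treated animals. Here 5 of 6 treated animals were above every control animal, where on FPKM treated replicate 4 alone was. The highest relative values were those of treated replicates 1 and 2 (0.81 and 0.20), which had the lowest list levels. The lowest treated value was that of treated replicate 6 (-1.30), which had the highest list level. TNXB was chosen for this direction and followed the list with a flatter slope, so the wider separation is not support. The difference of PODN was -0.92 (SE 0.49), with 3 of 6 treated animals below every control animal in place of 5. The difference of SMOC2 was -1.21 (SE 0.96), with 3 treated animals below and 1 above every control animal.

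Leaving out treated replicates 1 and 2, the animals with the least of the fibroblast list, brought DCN to -0.04, LUM to -0.09 and FN1 to -0.10 on the log2 FPKM scale, and TNC to 0.42, FBN1 to 0.26 and POSTN to 0.05. In that setting PODN was at -0.82 in place of -1.39, SMOC2 at -2.003 and TNXB at 0.81. This omission was also chosen after seeing the data. The signs of TNXB, SMOC2 and PODN were the same in each of the 21 settings computed, as their choice by this contrast favours.

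**Figure D4:**
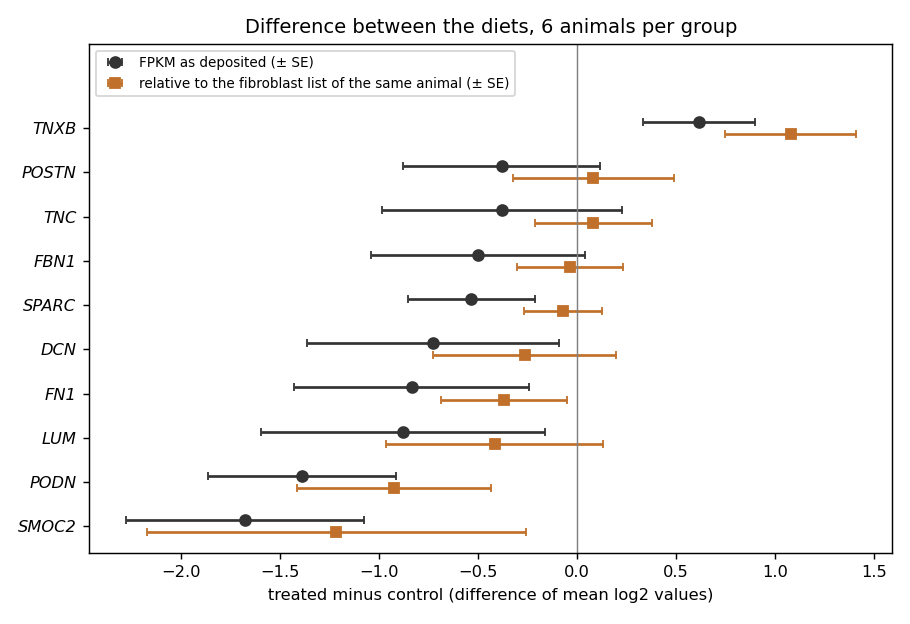
Treated minus control difference of the mean log2 value of each member (horizontal axis) with its SE over 6 animals per group, on FPKM as deposited (circles) and relative to the fibroblast list of the same animal (squares). TNXB lies to the right of 0 on both scales, at 0.62 and 1.08, and PODN and SMOC2 lie to the left on both. Every member moves by the same amount between the scales, which brings TNC, POSTN, SPARC and FBN1 to within 0.08 of 0.

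The genes most like TNXB, PODN and SMOC2 in their within-group deviations were read from all 12742 genes tested, as a description over 12 animals. For TNXB they were LOC102406308 (r = 0.872), INHBB (0.855), which encodes an activin subunit, MRC2 (0.842), a collagen uptake receptor, ERH (0.835) and THBS4 (0.833), the matricellular thrombospondin-4. For PODN they were ZNF511 (r = 0.897), VAMP5 (0.894), WHAMM (0.876), FLNC (0.871), the filamin of muscle, and SPTLC3 (0.869). For SMOC2 they were PGBD1 (r = 0.805), CCP110 (0.790), SKAP1 (0.784), CWC27 (0.781) and LTO1 (0.775). No gene stood in more than 1 of these 3 groups of 5, and none was another member.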

How the data were processed

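The authors processed stranded total RNA libraries with FastQC 0.11.5, Trimmomatic 0.39, STAR 2.5.2b on the UOA_WB_1 genome, and featureCounts 2.0.0 by strand. The deposited values are FPKM. The gene lengths and tool behind the FPKM are not given in the sources used here. A further 4 columns match no sample label and were left out.

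Within a gene, FPKM move in steps worth 1 read, which gave the reads of each of the 22972 genes above 0 (tolerance 0.0001 of a read). Genes reaching 40 depth-scaled reads in 1 animal or more, 12742 in number, entered limma 3.58.1 in R 4.3.3 (lmFit, eBayes with trend) on log2(FPKM + 0.01), 6 animals against 6, with Benjamini-Hochberg adjustment. The fit was tested on simulated data. Fold changes of low genes on this scale depend on the pseudocount, as for SMOC2 and PODN (-0.61 and -0.48 with 1 FPKM). Correlations used 100000 permutations in Python 3.11.15 with scipy 1.17.1.

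The members and gene lists were chosen with earlier results of these data known. The text names the 10 members, the wider-list genes past the nominal threshold or else the 4 with the smallest p, the 5 genes most like TNXB, PODN and SMOC2, and the 3 highest and 3 lowest pairs. Alternatives were pseudocounts of 0.1 and 1, other filters, median ratio scaling, voom on the recovered reads, the replicate number as a block, and each animal left out. The 10 members matched the RefSeq table of NDDB_SH_1, where 4 (TNXB, TNC, SMOC2 and FBN1) overlap another locus. Replicates are numbered 1 to 6 per group as in the sample descriptions, and the numbers in the titles and table columns differ from these for control replicate 6 and the treated animals, so the replicate block and same-number correlations rest on the descriptions.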

Additional observations from a re-analysis of the deposited data

How the results depend on the processing

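No gene passed the adjusted threshold in any of the limma fits, voom included. The 162 genes past the nominal threshold became 301 (168 higher, 133 lower) with genes of at least 0.1 FPKM in at least 6 animals, where 16450 genes were tested, 562 (271 higher, 291 lower) with no filter, where 22972 were tested, and 325 (199 higher, 126 lower) with the replicate block. With 1 animal left out they ranged from 145 to 331, the latter without treated replicate 6. In the wider list the 0 genes became 1 (SRPX) with the replicate block, and 0 to 5 with 1 animal left out: 5 without treated replicate 4, 4 without treated replicate 5, 2 without control replicate 2 and 1 without control replicate 5. Same-numbered animals are different cows. Their deviations correlated at -0.01 to 0.411 (mean 0.212 over 6 pairs, against -0.04 over the 30 other pairs), and 8 of 12 animals correlated best with their own number. The design describes no pairing, and whether the numbers stand for one was not tested. The block changed no call of a member. TNXB was not past the nominal threshold with median ratio scaling, with no filter, or without control replicate 2, 4, 5 or 6 or treated replicate 3, 4 or 6, 1 at a time. The number of member pairs past the nominal threshold was 24 with either pseudocount and with median ratio scaling, and 20 to 26 with 1 animal left out, 20 without treated replicate 1, where SPARC and SMOC2 were negatively correlated past it. The causes were not tested. Depth limits PODN and SMOC2, which rest on as few as 5 reads.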

Other observations

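The genes most like the other members were read in the same way, and these names were chosen after their values were seen. TNC was most like COL6A1 (r = 0.984), a chain of type VI collagen, and NID2 (0.945), a basement membrane linker. POSTN was most like DCN and LUM, followed by DDR2 (0.944), a receptor for fibrillar collagen. SPARC was most like GNG11 (0.950). These coefficients are the highest of 12742 genes over 12 animals of shared depth and tissue makeup, and are given as values.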
